A study of Mus musculus with 6 samples.

Results

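Fatty acid oxidation genes were described here as a set of 9 named genes, Cpt1a, Cpt2, Acadl, Acadm, Acadvl, Hadha, Hadhb, Etfdh and Decr1, out of 11922 genes in the count table. The rule names them by their place in the mitochondrial pathway and uses no measured value, although it was set with earlier results of these data known, and all 9 passed the low-count filter. CD8+ T cells were sorted from spleens of C57BL6/J mice over 6 weeks of age, 3 donors in all, and were activated with anti-CD3 and anti-CD28 beads in medium holding recombinant human IL-2 at 100 units per ml. The vehicle group received water and the AOA group received 0.25 mM aminooxyacetic acid, an inhibitor of enzymes that use pyridoxal phosphate, the active form of vitamin B6. Treatment ran for 7 days, first for 72 hours with the beads and then for 4 further days in IL-2 without them. The labels give the same donor numbers, 1 to 3, to both treatments, which makes 3 libraries per group with replicate numbers that name the mouse. The comparison addresses which transcripts differed after 7 days with AOA, and the libraries do not measure the activity of the vitamin B6-dependent enzymes. No group carried a genetic change, and every library came from an expanded culture rather than from cells taken directly from an animal.

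Mitochondrial beta-oxidation shortens fatty acids from the carboxyl end and hands their electrons to the respiratory chain. Long-chain fatty acids enter the matrix as carnitine esters, made by CPT1 on the outer membrane, carried inward by the carnitine carrier and turned back into acyl-CoA by CPT2. Acyl-CoA dehydrogenases of different chain-length preference then take the first electrons, the trifunctional protein carries out the remaining steps on long chains, and the electron transfer flavoprotein passes electrons to ETF dehydrogenase and on to ubiquinone. In CD8+ T cells the pathway is best known from memory cells, whereas effector cells rely strongly on glycolysis.

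Of the 9 genes, 1 rose with AOA (Hadhb), 2 fell (Cpt1a and Etfdh) and 6 were not called. A gene was called when its adjusted p in the quasi-likelihood test of edgeR, corrected over the 11759 genes tested, was under 0.05. Levels are given as CPM, counts scaled to a common library size after TMM normalisation, and a positive fold change means a higher level with AOA. By the same rule 53.0% of all genes tested were called, 26.2% higher and 26.8% lower, so 3 of 9 is no excess over the background. The changes were also small against that background. The median absolute log2 fold change was 0.27 for the 9 genes and 0.56 for all genes tested, and the signed medians were 0.04 and -0.02. None of the 9 reached an absolute log2 fold change of 1 together with a call, which 26.2% of all genes did. In 5 of the 9 genes the 3 AOA libraries lay wholly outside the range of the 3 vehicle libraries, above it for Hadhb and below it for Cpt1a, Acadl, Acadvl and Etfdh, while 62.1% of all genes had ranges that did not overlap.

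**Figure D1:**
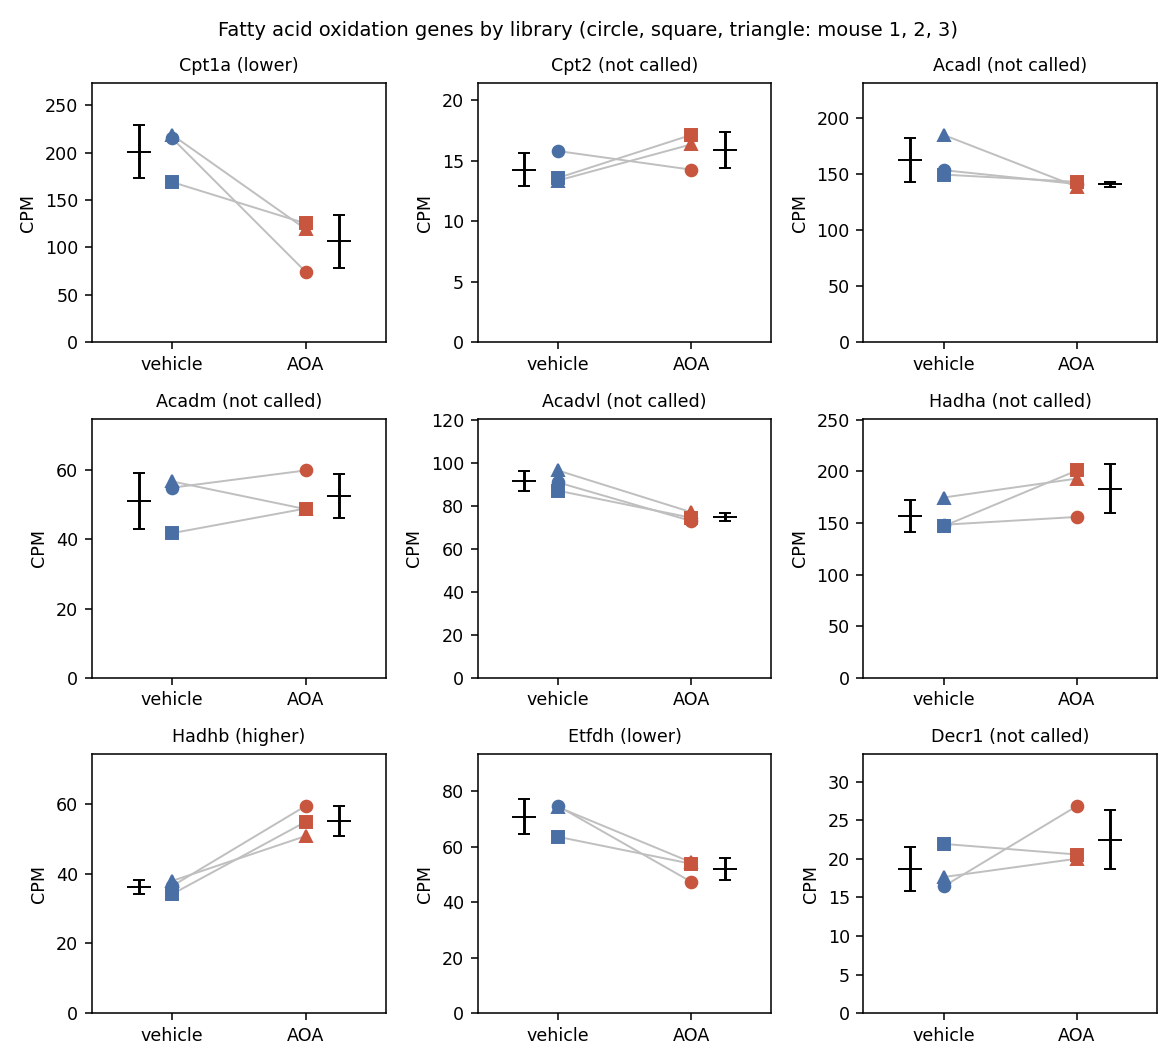
CPM of each of the 9 genes in every library (y axis, from 0), vehicle in blue on the left and AOA in red on the right of each panel, with lines joining cultures of the same mouse and the mean ± SD (n = 3) beside each group. Cpt1a, Acadl, Acadvl and Etfdh lie lower in all AOA libraries, Hadhb lies higher in all of them, and the groups overlap for the other genes.

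The depth of the libraries and their likeness to each other bear on every value below. Total counts were 12881962 to 18934869 with vehicle and 18696114 to 21997078 with AOA, and each of the 9 genes had between 199 and 4028 counts in a library. The groups separated on the first principal component, which held 80.1% of the variance. Vehicle replicate 2 lay apart on the second component, at -44.2 against 21.9 and 19.4 for vehicle replicates 1 and 3. AOA replicate 1 was not set apart there, at 6.30 beside AOA replicate 3 at 4.56, with AOA replicate 2 at -7.97. By a chi-square of counts between replicates, however, 2 libraries stood apart from the others of their group. Vehicle replicate 2 differed from vehicle replicates 1 and 3 with a chi-square per gene of 55.1 and 59.7, against 10.02 between those, and AOA replicate 1 differed from AOA replicates 2 and 3 with 71.1 and 64.6, against 10.5. Calls were therefore also made without both of them, which left 2 against 2 libraries. In that fit 66.6% of all genes tested were called, against 53.0% with all libraries. Leaving out libraries because they differ within their group lowers the spread there, so calls gained in that fit are no separate support for a difference.

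The libraries showed the defining transcripts of CD8+ T cells, Cd8a, Cd8b1, Cd3e, Cd3g and Cd3d, with a summed level of 2908 to 3737 CPM with vehicle and 3994 to 4644 CPM with AOA. The higher sum came from Cd8a and Cd8b1, which rose (log2 fold change 1.03 and 0.64, adjusted p = 0.00128 and 0.0148), while Cd3e, Cd3g and Cd3d were not called, with log2 fold changes of -0.27, -0.31 and -0.13. Transcripts that also mark other cells moved with the groups. The 4 myeloid and dendritic markers present summed to 67.9 to 102 CPM with vehicle and 3.13 to 6.18 CPM with AOA, and all 3 that were tested, Itgam, Itgax and Xcr1, fell. Lyz2, a defining myeloid gene, was at 0.106 ± 0.183 CPM with vehicle and 0.513 ± 0.569 CPM with AOA (SD, n = 3). The 3 CD4 T cell markers summed to 82.2 to 137 CPM with vehicle and 21.7 to 31.3 CPM with AOA, and 2 of the 3, Cd4 and Cd40lg, fell. The 2 NK cell markers present, Klrb1c and Ncr1, summed to 20.1 to 114 CPM with vehicle and 3.53 to 11.6 CPM with AOA. Of the B cell markers Cd79b rose from 11.7 ± 1.24 to 23.7 ± 4.34 CPM (log2 fold change 1.01, adjusted p = 0.00172), while Ms4a1 and Cd79a had means of at most 1.42 CPM. The part of these other transcripts in the values of the fatty acid oxidation genes was not tested. In bulk cultures fewer cells that express a gene and less of its RNA per cell cannot be told apart.

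Entry of long-chain fatty acids was represented by Cpt1a and Cpt2. Cpt1a encodes the liver isoform of carnitine palmitoyltransferase 1, the step that malonyl-CoA inhibits, and it was the member with the largest difference. Its level was 215, 169 and 219 CPM in vehicle replicates 1, 2 and 3, and 74.3, 125 and 119 CPM in AOA replicates 1, 2 and 3. Every AOA culture was below every vehicle culture, and the culture of mouse 1 was the lowest. The means were 201 ± 27.8 CPM with vehicle and 106 ± 27.9 CPM with AOA (SD, n = 3), a log2 fold change of -0.92 (SE 0.21, adjusted p = 0.00531, edgeR). The level was thus 1.89 times higher with vehicle, with a 95% interval of the log2 fold change from -1.39 to -0.45. Within mice the log2 differences were -1.53, -0.43 and -0.87. The size of the change stood at the 69.4th percentile of all genes tested. Cpt1a (Entrez 12894) lies at chr19:3322326-3385735 on the plus strand in GRCm38.p6.

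Because Cpt1a changed most, its upstream sequence from RefSeq (GRCm38.p6, chr19:3323051-3323284, plus strand) is shown, 5′ to 3′, up to the first exon of the transcript that starts there and downstream of the first exon of a longer one. Capitals mark the only AGGTCA core of nuclear receptor binding sites, which reads on the opposite strand.
Cpt1a: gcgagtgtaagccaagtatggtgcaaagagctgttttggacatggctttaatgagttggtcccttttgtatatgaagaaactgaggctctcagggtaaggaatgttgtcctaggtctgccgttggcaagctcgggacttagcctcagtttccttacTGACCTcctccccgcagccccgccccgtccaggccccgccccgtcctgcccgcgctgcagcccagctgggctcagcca

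Cpt2 encodes the inner-membrane partner that reverses the reaction of CPT1. It was measured at 15.8, 13.6 and 13.4 CPM with vehicle and 14.3, 17.1 and 16.3 CPM with AOA, so the groups overlapped. Its log2 fold change was 0.16 (SE 0.17, adjusted p = 0.438, edgeR), with a 95% interval from -0.21 to 0.53. The log2 ratio of Cpt1a to Cpt2 was then compared, a choice made after the values of both genes had been seen. Per length, Cpt1a stood at 7.44, 6.80 and 8.95 times the level of Cpt2 with vehicle and at 2.85, 4.00 and 3.99 times with AOA. The groups did not overlap, and the mean log2 ratio differed by -1.11 (exact two-sided permutation p = 0.1, the smallest that 3 against 3 libraries allow). Slc25a20, the carnitine-acylcarnitine carrier that works between these enzymes, fell from 49.3 ± 4.60 to 34.2 ± 4.66 CPM (log2 fold change -0.53, adjusted p = 0.0147, edgeR). That call was lost without vehicle replicate 3, AOA replicate 2 or AOA replicate 3 (adjusted p = 0.0762, 0.0519 and 0.0734). The ratio of Cpt1a to Slc25a20, also chosen after the values were seen, overlapped between groups, at 2.01, 1.39 and 1.70 with vehicle and 0.784, 1.58 and 1.64 with AOA (log2 difference -0.41, exact permutation p = 0.4). The lower AOA mean rested on AOA replicate 1, since the log2 differences within mice were -1.36, 0.18 and -0.05. Cpt1b and Cpt1c, the muscle and brain isoforms, were not analysed here.

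**Figure D2:**
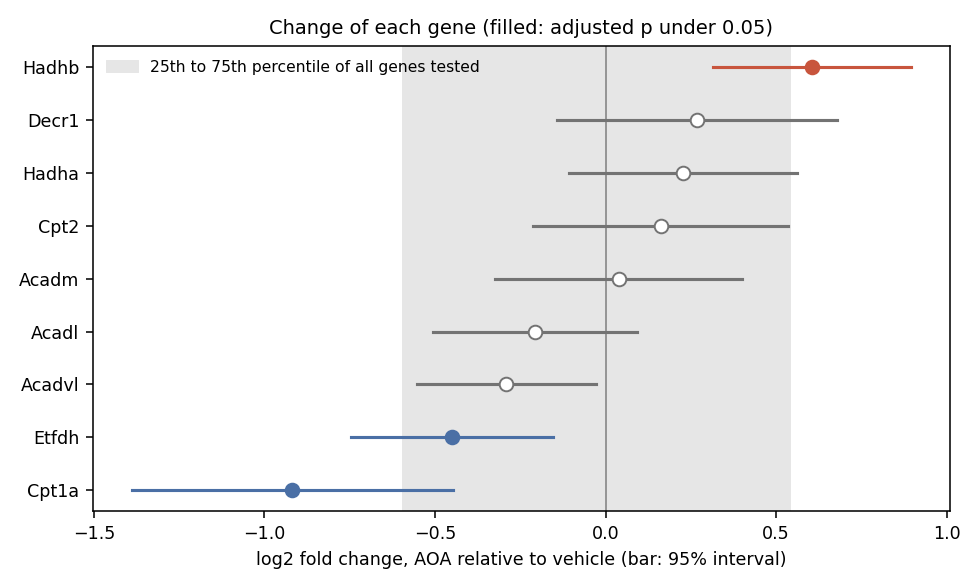
Log2 fold change of AOA relative to vehicle for each of the 9 genes (x axis) from the edgeR fit, with 95% intervals as bars, filled points for called genes and a shaded band from the 25th to the 75th percentile of all genes tested. Cpt1a lies farthest from 0 at -0.92, Hadhb is the called gene above 0 at 0.60, and the intervals of the genes not called include 0 other than that of Acadvl.

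The chain-length series of acyl-CoA dehydrogenases was measured through Acadvl, Acadl and Acadm, the very-long-chain, long-chain and medium-chain enzymes, and none of them was called. Acadvl came closest. It was at 91.0, 87.1 and 96.5 CPM with vehicle and at 73.0, 74.5 and 77.1 CPM with AOA, with no overlap and a lower AOA value in 3 of 3 mice. Its log2 fold change was -0.29 (SE 0.12, 95% interval -0.55 to -0.03), and the adjusted p was 0.0615. It passed the threshold with both libraries that stood apart left out (-0.28, adjusted p = 0.0157). It also passed with a filter of at least 10 CPM in 3 libraries (adjusted p = 0.0353). With the trend on gene length removed, fitted in each library to levels relative to the gene mean, it passed as well (adjusted p = 0.0498). It did not pass with the mouse as a block (adjusted p = 0.114), with the block and the length trend removed together (0.0810), or in any fit that left out 1 library (0.0587 to 0.265). Acadvl shares 1151 exon bases with Dvl2 on the opposite strand, and Dvl2 was at 38.1 ± 4.34 CPM with vehicle and 37.8 ± 4.00 CPM with AOA (adjusted p = 0.960). The sources used here do not state whether the counting used strand.

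Acadl was the member with the highest level per length. It was at 153, 149 and 185 CPM with vehicle and at 141, 143 and 139 CPM with AOA. All AOA libraries were lower, but the nearest values of the groups were close and vehicle replicate 3 stood well above the other vehicle libraries. The log2 fold change of -0.21 (SE 0.13, 95% interval -0.51 to 0.09) had an adjusted p of 0.216, and it was -0.08 without vehicle replicate 3. Acadm, whose enzyme acts on medium chains, was at 54.9, 41.8 and 56.7 CPM with vehicle and at 59.9, 48.9 and 48.7 CPM with AOA. These ranges overlapped, and the log2 fold change was 0.04 (SE 0.16, 95% interval -0.32 to 0.40, adjusted p = 0.856).

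The balance among the dehydrogenases differed by small amounts. The ratio of Acadl to Acadvl per length was 1.89, 1.93 and 2.15 with vehicle and 2.17, 2.15 and 2.02 with AOA, which overlapped (log2 difference 0.09, exact two-sided permutation p = 0.2). Acads, the short-chain dehydrogenase, fell from 79.6 ± 6.42 to 56.9 ± 8.35 CPM (log2 fold change -0.48, adjusted p = 0.0203, edgeR), and that call was lost when vehicle replicate 1, vehicle replicate 3, AOA replicate 2 or AOA replicate 3 was left out (adjusted p = 0.0772, 0.0859, 0.0536 and 0.0953). Of the summed level per length of Acadvl, Acadl, Acadm and Acads, Acadl made up 43.3% ± 1.92 with vehicle and 44.6% ± 1.602 with AOA. Acadm made up 13.9%, 11.6% and 13.0% with vehicle and 17.2%, 14.6% and 15.2% with AOA. Acads made up 23.2%, 22.0% and 21.2% with vehicle and 20.4%, 19.1% and 16.5% with AOA. The medium-chain share was thus above the vehicle range and the short-chain share below it in all 3 AOA libraries, by small margins and without a test.

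The trifunctional protein joins an alpha subunit, from Hadha, with hydratase and hydroxyacyl-CoA dehydrogenase activity to a beta subunit, from Hadhb, with thiolase activity. Hadhb was the member that rose. It was at 36.4, 34.1 and 37.9 CPM with vehicle and at 59.3, 54.8 and 50.7 CPM with AOA, every AOA value above every vehicle value. The means were 36.1 ± 1.91 and 55.0 ± 4.31 CPM (SD, n = 3), a 1.52-fold increase with a log2 fold change of 0.60 (SE 0.13, 95% interval 0.31 to 0.89, adjusted p = 0.00378, edgeR). The differences within mice were 0.70, 0.68 and 0.42 on the log2 scale. Hadha was at 148, 147 and 175 CPM with vehicle and at 156, 201 and 193 CPM with AOA. AOA was higher in 3 of 3 mice, yet the groups overlapped, and the log2 fold change of 0.23 (SE 0.15, 95% interval -0.11 to 0.56) was not called (adjusted p = 0.225). Without both libraries that stood apart it was 0.31 and called (adjusted p = 0.0186).

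The genes for both subunits lie head to head on mouse chromosome 5, Hadha (Entrez 97212) at chr5:30119423-30154980 on the minus strand and Hadhb (Entrez 231086) at chr5:30155253-30184593 on the plus strand, with 272 bases between their RefSeq starts. The stretch below is shown because a pair with a shared start region gave 1 called and 1 uncalled gene. It is the part of the Hadhb upstream sequence that lies in no GENCODE vM21 exon (GRCm38.p6, chr5:30155163-30155247, plus strand, 5′ to 3′). Capitals mark the 68 bases that also belong to the 250 bases upstream of Hadha.
Hadhb: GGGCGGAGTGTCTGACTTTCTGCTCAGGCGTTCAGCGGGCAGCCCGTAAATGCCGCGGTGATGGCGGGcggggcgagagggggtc

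The ratio of Hadha to Hadhb per length was 2.20, 2.33 and 2.50 with vehicle and 1.42, 1.98 and 2.06 with AOA. The groups did not overlap, and AOA replicate 1 was the lowest. The mean log2 ratio differed by -0.38 (exact two-sided permutation p = 0.1, the smallest possible here), and the differences within mice were -0.63, -0.23 and -0.28. Without AOA replicate 1 the difference was -0.21. Hadha shares 75 exon bases with Garem2 on the opposite strand, and Garem2 was not analysed here.

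**Figure D3:**
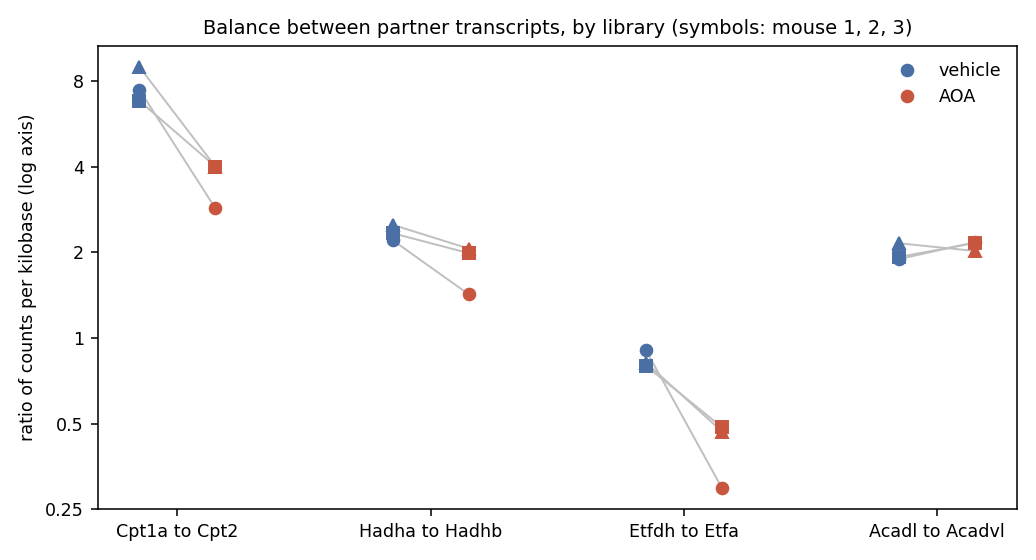
Ratio of counts per kilobase between partner genes in each library (y axis, log scale), vehicle in blue and AOA in red, with lines joining cultures of the same mouse. The ratios of Cpt1a to Cpt2, Hadha to Hadhb and Etfdh to Etfa are lower in all AOA libraries, and that of Acadl to Acadvl overlaps.

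At the exit to the respiratory chain, Etfdh encodes ETF dehydrogenase, the inner-membrane flavoprotein that reduces ubiquinone. It was at 74.8, 63.7 and 74.4 CPM with vehicle and at 47.4, 53.9 and 54.4 CPM with AOA. No AOA library reached the lowest vehicle library. The means were 70.9 ± 6.30 and 51.9 ± 3.92 CPM (SD, n = 3), a log2 fold change of -0.45 (SE 0.13, 95% interval -0.75 to -0.16, adjusted p = 0.0169, edgeR), or 1.37 times higher with vehicle. The call did not hold without vehicle replicate 1 (-0.39, adjusted p = 0.0807) or without vehicle replicate 3 (-0.39, adjusted p = 0.0889). Etfdh (Entrez 66841) at chr3:79603788-79628767 shares 278 exon bases with 4930579G24Rik, which is read from the opposite strand and rose from 8.35 ± 0.0183 to 45.6 ± 7.96 CPM (log2 fold change 2.45, adjusted p = 1.56e-05). The part of that overlap in the Etfdh counts was not tested.

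Etfdh was the member whose upstream sequence held the palindromic site of NRF1, a regulator of genes for mitochondrial proteins. The 30 bases around it are given from RefSeq (GRCm38.p6, chr3:79628876-79628905, minus strand, 5′ to 3′), with the site in capitals. They lie upstream of the RefSeq start, but inside an exon of a longer Etfdh transcript in GENCODE vM21, as do all 250 upstream bases searched.
Etfdh: tgcttctaggGCGCATGCGCacacgcgaga

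Etfa and Etfb encode the subunits of the electron transfer flavoprotein that feeds ETF dehydrogenase. Etfa rose from 54.2 ± 3.70 to 82.9 ± 17.3 CPM (log2 fold change 0.61, adjusted p = 0.0115, edgeR). The ratio of Etfdh to Etfa per length was 0.904, 0.798 and 0.818 with vehicle and 0.296, 0.485 and 0.469 with AOA, a difference in mean log2 ratio of -1.04 with no overlap (exact two-sided permutation p = 0.1). Etfa and Etfdh thus differed in opposite directions. Etfb was at 28.2, 49.7 and 28.01 CPM with vehicle and at 39.7, 29.3 and 31.7 CPM with AOA, and the high value in vehicle replicate 2, a library that stood apart, made the groups overlap. Its log2 fold change was -0.07 (adjusted p = 0.816), but 0.29 without vehicle replicate 2 (adjusted p = 0.152) and 0.15 without both libraries that stood apart (adjusted p = 0.239), not called in any of these fits. The ratio of Etfdh to Etfb per length, added after the values were seen, was 1.05, 0.508 and 1.05 with vehicle and 0.473, 0.730 and 0.680 with AOA. The groups overlapped through vehicle replicate 2 alone (log2 difference -0.42, exact permutation p = 0.3).

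Decr1 encodes 2,4-dienoyl-CoA reductase, the auxiliary enzyme for polyunsaturated chains. It was at 16.4, 21.9 and 17.6 CPM with vehicle and at 26.8, 20.6 and 20.02 CPM with AOA. The highest vehicle value, in replicate 2, lay above 2 of the AOA values. The log2 fold change was 0.27 (SE 0.18, 95% interval -0.14 to 0.68, adjusted p = 0.243), and the differences within mice were 0.70, -0.09 and 0.18.

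The order of the 9 genes was compared on levels per length, as RPKM, the CPM divided by the gene length in kilobases. Acadl led in both groups, with 83.4 ± 9.95 RPKM with vehicle and 72.3 ± 1.12 RPKM with AOA (SD, n = 3). With vehicle Cpt1a followed at 46.7 ± 6.45 RPKM, Acadvl at 41.8 ± 2.16 RPKM and Hadha at 40.9 ± 4.08 RPKM, and these neighbours overlapped. Etfdh at 31.1 ± 2.76, Acadm at 24.8 ± 3.96 and Hadhb at 17.4 ± 0.919 RPKM came next, each separated from the next. Decr1 and Cpt2 were the lowest, at 6.31 ± 0.978 and 6.06 ± 0.575 RPKM, and overlapped. With AOA the second level was that of Hadha, at 47.8 ± 6.28 RPKM, followed by Acadvl at 34.2 ± 0.9505 RPKM. Hadhb at 26.5 ± 2.08, Acadm at 25.5 ± 3.11, Cpt1a at 24.7 ± 6.49 and Etfdh at 22.8 ± 1.72 RPKM then formed a stretch in which neighbours overlapped. Cpt1a thus stood second with vehicle and in that middle stretch with AOA, while Cpt2 stayed lowest at 6.77 ± 0.632 RPKM, next to Decr1 at 7.596 ± 1.28 RPKM, with which it overlapped. The summed level of the 9 genes was 727 to 875 CPM with vehicle and 652 to 739 CPM with AOA, ranges that overlapped.

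Over the 6 libraries, which fall into the groups, Cpt1a varied most closely with Etfdh among the 9 genes (Pearson r of log2 CPM 0.977, n = 6 libraries), and Hadha varied only loosely with Hadhb (r = 0.550). Among all genes tested Hdac4, Cnst and Nub1 were most like Cpt1a, with r of 0.9995, 0.998 and 0.998. These are descriptions of the same 6 libraries, in which 449 genes had an r above 0.95 with Cpt1a.

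Promoter sequences in RefSeq were found for 8 of the 9 genes, and Decr1 was not among them. The letters of known motifs were searched on both strands from 250 bases before to 50 bases after the start. The exact letters AGGTCANAGGTCA of the PPAR element were in 0 of these 8 windows and in 0.04% of all 32851 windows. Those of the ERR element, TCAAGGTCA, were in 0 of 8 and in 0.423% of all. With shares this low, 0 of 8 cannot tell these genes from others. The AGGTCA core, which both longer motifs contain, was in the windows of Acadm, Acadvl and Cpt1a and in 16.3% of all windows. The NRF1 site GCGCATGCGC was in that of Etfdh and in 0.971% of all, the ETS motif CCGGAAG in that of Cpt2 and in 8.86% of all, and the YY1 motif AAGATGG in those of Acadvl and Hadha and in 6.34% of all. The E-box CACGTG was in 0 of 8 and in 7.15% of all. The CCAAT box was in 2 of 8 windows, those of Cpt1a and Etfdh, and in 37.4% of all windows, so it was no more frequent here. A match is a match of letters in this window and says nothing of binding.

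Around the 9 genes, lists of the wider pathway held 86 other genes, of which 71 were in the table and 69 were tested. Of these 14 rose, 17 fell and 38 were not called, with a median log2 fold change of -0.09. The called share was 44.9%, against 53.0% of all genes tested (26.2% higher and 26.8% lower), so these lists together held no excess of calls, and most of the lists below hold too few genes for their counts to be read against those shares. The minimum fold change aside, 18 of the 31 called genes were called in each alternative fit they entered. Among genes for uptake and activation of fatty acids, 3 of 8 rose and 2 fell. Fabp5, a fatty acid-binding protein, rose from 7.46 ± 3.93 to 34.1 ± 6.58 CPM (log2 fold change 2.18, adjusted p = 6.48e-04). Acsl1 and Acsl5, which make acyl-CoA from long-chain fatty acids, rose by log2 fold changes of 1.96 and 1.40 (adjusted p = 7.68e-05 and 1.29e-04). Acsl4, the form that prefers arachidonic acid, fell (-0.60, adjusted p = 0.0107), a call lost without vehicle replicate 1, vehicle replicate 3 or AOA replicate 3 (adjusted p = 0.0518, 0.0541 and 0.0537). The transporter gene Slc27a1 fell from 13.7 ± 2.42 to 1.46 ± 0.292 CPM (-3.23, adjusted p = 2.69e-05). Fabp5, Acsl1, Acsl5 and Slc27a1 thus had larger fold changes than any of the 9 genes, in both directions.

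**Figure D4:**
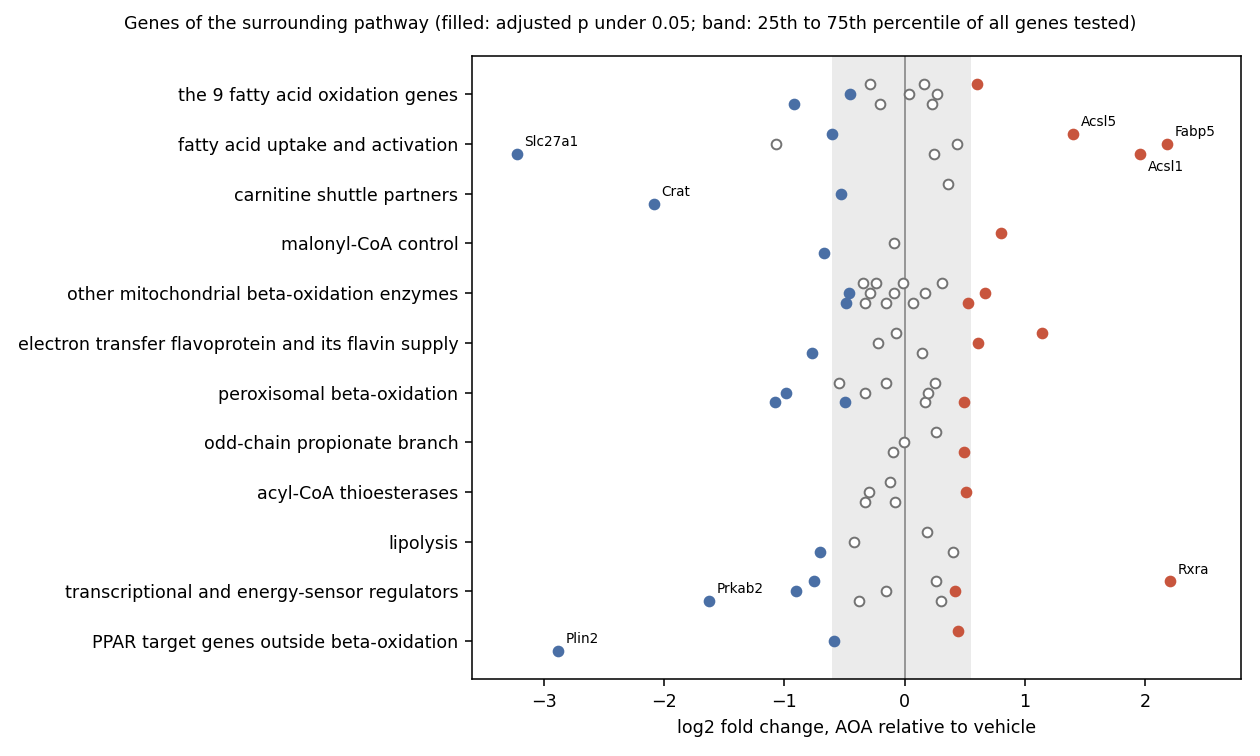
Log2 fold change of AOA relative to vehicle (x axis) for every tested gene of the 9 and of each list of the wider pathway (rows), filled where called, with a shaded band from the 25th to the 75th percentile of all genes tested. The points farthest from 0 are Slc27a1 and Plin2 on the lower side and Rxra and Fabp5 on the higher side, outside the row of the 9 genes.

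Of the other carnitine shuttle genes 2 of 3 fell, Slc25a20 as above and Crat, the carnitine acetyltransferase, from 18.9 ± 4.93 to 4.44 ± 0.470 CPM (log2 fold change -2.09, adjusted p = 1.29e-04). Control of CPT1 by malonyl-CoA was represented by 3 genes. Acaca, for the cytosolic carboxylase that makes malonyl-CoA, rose from 33.0 ± 9.07 to 57.7 ± 13.9 CPM (0.80, adjusted p = 0.0165), although the group ranges overlapped and the call was lost without vehicle replicate 1, vehicle replicate 3 or AOA replicate 2 (adjusted p = 0.0584, 0.0545 and 0.0547). Mlycd, for the decarboxylase that removes it, fell from 20.8 ± 1.69 to 13.0 ± 0.931 CPM (-0.67, adjusted p = 0.00585). Acacb, for the mitochondrial-surface carboxylase, was not called (-0.09, adjusted p = 0.829).

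The other mitochondrial beta-oxidation enzymes numbered 14, with 2 higher, 2 lower and 10 not called. Acat1, the thiolase of ketone and isoleucine metabolism, and Acad9, an acyl-CoA dehydrogenase also needed for complex I assembly, rose by log2 fold changes of 0.67 and 0.52 (adjusted p = 0.00985 and 0.00750). Besides Acads, Eci1, the enoyl-CoA isomerase, fell (-0.46, adjusted p = 0.0425), and with the mouse as a block its adjusted p was 0.0570. Eci1 was also lost without each library in turn other than vehicle replicate 3 (adjusted p from 0.0616 to 0.133). Hadh and Acaa2, the soluble enzymes that take over from the trifunctional protein on shorter chains, were not called, with log2 fold changes of 0.07 and -0.01 (adjusted p = 0.839 and 0.947). In the list of the electron transfer flavoprotein and its flavin supply, 2 of 6 rose, Etfa and the mitochondrial folate and flavin carrier Slc25a32 (1.15, adjusted p = 0.00143), and Flad1, the FAD synthase, fell (-0.77, adjusted p = 0.00377).

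Peroxisomal beta-oxidation held 10 tested genes, of which 3 fell, 1 rose and 6 were not called. Acox3, an acyl-CoA oxidase, fell from 81.7 ± 1.58 to 38.6 ± 6.26 CPM (log2 fold change -1.08, adjusted p = 3.67e-04), and Crot, the carnitine octanoyltransferase that exports shortened chains, fell from 146 ± 14.3 to 73.4 ± 15.1 CPM (-0.99, adjusted p = 0.00118). Acaa1a, the peroxisomal thiolase, fell (-0.50, adjusted p = 0.0199), and the transporter gene Abcd3 rose (0.50, adjusted p = 0.0371). Both of these last calls were lost without vehicle replicate 3, AOA replicate 2 or AOA replicate 3 (adjusted p = 0.0993, 0.0802 and 0.0534 for Acaa1a, and 0.0702, 0.105 and 0.146 for Abcd3), that of Acaa1a also without vehicle replicate 1 (0.0837) and that of Abcd3 without vehicle replicate 2 (0.0567). Smaller lists gave 1 call each. Pccb of the propionate branch rose (0.49, adjusted p = 0.0292) among 4 genes, Acot7 of the thioesterases rose (0.51, adjusted p = 0.0200) among 5, and the lipase gene Lipe fell (-0.70, adjusted p = 0.00977) among 4. Pccb was lost without each library in turn other than vehicle replicate 2 (adjusted p from 0.0556 to 0.0992), Acot7 without vehicle replicate 1 or 3 or AOA replicate 1 or 3 (0.0501 to 0.0791), and Lipe without vehicle replicate 3 (0.0612).

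Among 9 tested regulators 2 rose, 3 fell and 4 were not called. Rxra, the partner receptor of the PPARs, rose from 14.0 ± 3.05 to 65.1 ± 16.1 CPM (log2 fold change 2.21, adjusted p = 7.84e-05), while its paralogue Rxrb fell (-0.90, adjusted p = 0.00140). Esrra, for the nuclear receptor ERR alpha, fell from 33.7 ± 4.03 to 20.004 ± 3.50 CPM (-0.75, adjusted p = 0.00541). Of the AMP-activated protein kinase subunits Prkab2 fell (-1.63, adjusted p = 5.39e-04) and Prkag1 rose (0.42, adjusted p = 0.0425), the latter with an adjusted p of 0.0555 with the mouse as a block. Prkag1 was also lost without vehicle replicate 1, vehicle replicate 3, AOA replicate 1 or AOA replicate 2 (adjusted p = 0.140, 0.0897, 0.101 and 0.0731). Ppard was not called (-0.38, adjusted p = 0.105). Pparg did not pass the low-count filter, with 0.476, 4.12 and 0.706 CPM with vehicle, where replicate 2 carried the mean, and 0.368, 0.317 and 0.202 CPM with AOA. It was called lower in the fit without that filter (adjusted p = 0.0283) and in the fit without vehicle replicate 1 (0.0125), was not called without any 1 of the AOA libraries (0.0666 to 0.0887), and was not tested without vehicle replicate 2. Ppara and Ppargc1a were not analysed here. Of the 3 tested PPAR target genes outside beta-oxidation, Plin2, the lipid droplet coat protein, fell from 46.2 ± 3.38 to 6.25 ± 0.751 CPM (-2.88, adjusted p = 1.12e-05), Angptl4 fell (-0.59, adjusted p = 0.0341) and Ucp2 rose (0.44, adjusted p = 0.0299). Angptl4 was lost without vehicle replicate 1 or 2 or AOA replicate 2 or 3 (adjusted p from 0.0605 to 0.144), and Ucp2 without vehicle replicate 1 or 3 or AOA replicate 2 or 3 (0.0664 to 0.130).

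Fits that left out 1 library at a time showed how far each of the 9 genes rested on a single culture. The log2 fold change of Cpt1a ranged from -1.05 to -0.71 and was smallest in size without AOA replicate 1, and that of Hadhb ranged from 0.55 to 0.67. Both genes were called in all 6 of these fits. Decr1 ranged from 0.12 without AOA replicate 1 to 0.43 without vehicle replicate 2, and Acadm from -0.065 to 0.15.

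**Figure D5:**
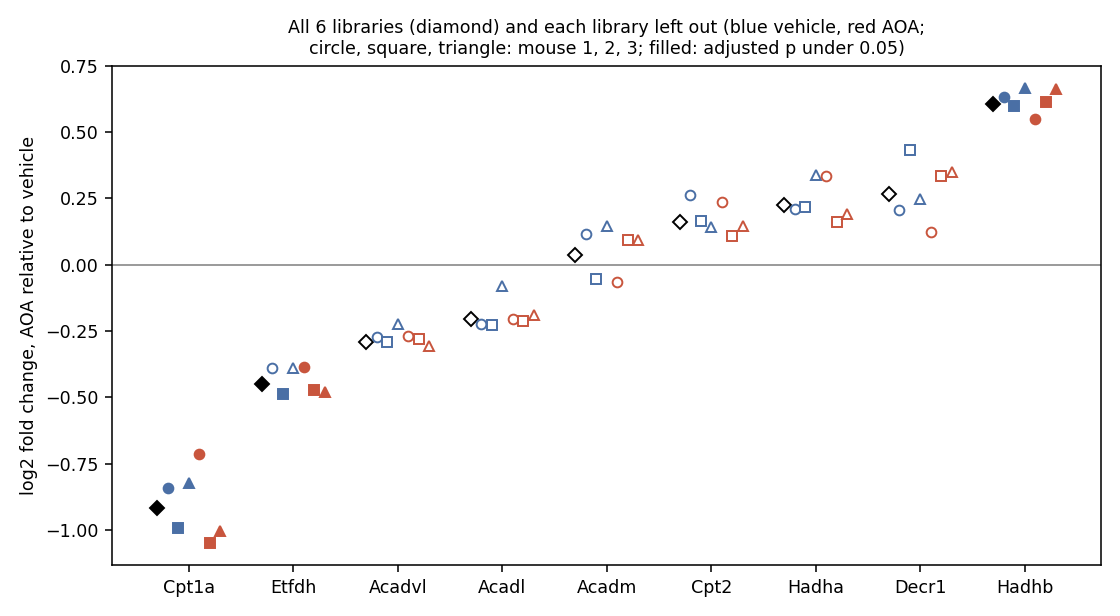
Log2 fold change of AOA relative to vehicle (y axis) for each of the 9 genes in the fit on all 6 libraries (diamond) and in each fit that left out 1 library, vehicle in blue and AOA in red, with circle, square and triangle for mouse 1, 2 and 3 and filled symbols where called. Cpt1a and Hadhb stay called in every fit, Etfdh is not called without vehicle replicate 1 or vehicle replicate 3, and Acadm lies on both sides of 0.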

How the data were processed

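Per the paper's methods and the labels, the authors made stranded mRNA libraries, aligned reads to mm10 with STAR and deposited raw counts of reads per gene with Entrez numbers and gene lengths. The submitters' processing notes also name bcl2fastq, featureCounts and DESeq2. The sources used here give no version, annotation, strand setting or gene filter, and 0 columns lacked a sample.

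The fit across the deposited counts was made by edgeR 4.0.16 under R 4.3.3 (filterByExpr, minimum count 10, TMM, robust quasi-likelihood test, Benjamini-Hochberg adjustment over 11759 genes, threshold 0.05). CPM and RPKM used TMM library sizes and deposited lengths. Pairing came from the donor labels. Deviations from group means correlated within each mouse with r of 0.0868, 0.189 and 0.194 across genes. Alternatives were DESeq2 1.42.0, limma 3.58.1, other scalings and filters, the mouse as a block, removal of the length trend, each library left out, and, chosen after the data were seen, both libraries that stood apart left out. Steps were tested on simulated data. The members and the gene lists were chosen with earlier results of these data known. Text names every member, up to 3 called genes per direction of each list, and the members' partners. No set test was run. Results of 1 listed marker gene are left out.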

Additional observations from a re-analysis of the deposited data

How the results depend on the processing

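The 9 genes gave 144 fold changes under 16 alternatives each, of which 135 kept their direction and side of the threshold. Cpt1a and Hadhb were called under all 16, with log2 fold changes from -1.05 to -0.71 and from 0.53 to 0.67 and adjusted p up to 0.0232 and 0.0140. Genes called lower numbered 1 to 2 when each library was left out, genes called higher 1 in each such fit, and genes called in either direction 2 to 3. Etfdh was the call lost, without vehicle replicate 1 or 3, and its log2 fold change ranged from -0.49 to -0.39. With a minimum absolute log2 fold change of 1 required, 0 genes were called in all, 0 higher and 0 lower. Without both libraries that stood apart, 5 were called, 2 higher and 3 lower, with Acadvl and Hadha added. Acadm, not called in any fit, turned negative without vehicle replicate 2 (-0.05), without AOA replicate 1 (-0.065) and without both (-0.17). In these cases the cause was not tested. The mouse as a replicate block gave 3 calls, 1 higher and 2 lower, and changed no call among the 9. In per-mouse differences, the replicate block for the ratios, the exact sign-flip p was 0.25 for Hadha to Hadhb (-0.38), 0.25 for Etfdh to Etfa (-1.04) and 0.5 for Acadl to Acadvl (0.09), where 0.25 is the smallest that 3 mice allow. Leaving out each library moved these ratios from -0.48 to -0.21, from -1.17 to -0.81 and from 0.05 to 0.15. Called genes of the wider pathway numbered 31 of 69, against 20 without vehicle replicate 3, 10 with that minimum fold change and 43 without both libraries that stood apart. The median log2 fold change of all genes stayed between -0.04 and 0.03 under every scaling. With 3 mice per group the p-values measure the spread between these cultures only.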
